A study of Mus musculus with 25 samples.

Results

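Gpx1, Gpx3, Gpx7 and Gpx8 are the 4 glutathione peroxidase genes besides Gpx4 that were read in the mouse heart here. Each was chosen by its gene symbol, and its value is the sum over the transcripts of that symbol, so the set is 4 of 35969 genes summed and 4 of the 11984 genes that were tested. All 4 passed the filter for testing, a mean of at least 1 TPM after scaling. The question was whether their mRNA differed in hearts with 1 disrupted Gpx4 allele, with a high fat high sucrose diet, or with carnosine.

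mRNA of left ventricular tissue was sequenced from 25 male mice, 5 in each of 5 groups. WT CNTL and GPx4+/- CNTL mice, the latter heterozygous for the Gpx4 disruption, ate a low fat, starch-based chow. WT HFHS and GPx4+/- HFHS mice ate a diet rich in lard, cholesterol and sucrose (HFHS). In all 5 groups the assigned diet began between 8 and 10 weeks of age and lasted 16 weeks. WT HFHS + Carnosine mice also drank 80 mM carnosine, a dipeptide that traps reactive aldehydes, from week 7. Carnosine in GPx4+/- mice was not analysed here. The mice of the study were killed after a fast and an injection of dextrose or saline, and which mouse had which is not given in the labels.

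Glutathione peroxidases reduce peroxides to water or alcohols, and most take the electrons from glutathione. GPX1 is the abundant enzyme of the cytosol and mitochondria and acts on hydrogen peroxide and soluble hydroperoxides, while GPX3 is secreted and is the peroxidase of blood plasma. GPX4 is the enzyme that reduces peroxidised phospholipids within membranes and guards cells against ferroptosis. GPX7 and GPX8 sit in the endoplasmic reticulum, where peroxide is used to form the disulfide bonds of newly made proteins. GPX1, GPX3 and GPX4 carry selenocysteine at the catalytic site, written in the mRNA as the codon TGA, whereas GPX7 and GPX8 carry cysteine.

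The coding bases around this codon are shown because they separate the selenium-dependent members from the ones that need none. Each stretch of 30 bases was read 5′ to 3′ from the reference transcript of GENCODE mouse M21 (genome build GRCm38), with the catalytic codon in capitals.
Gpx1: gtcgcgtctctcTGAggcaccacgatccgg
Gpx3: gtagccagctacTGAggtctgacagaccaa
Gpx4: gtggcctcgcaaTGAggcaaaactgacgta
Gpx7: gtagctagcgaaTGTggcttcacagaccag
Gpx8: gtggctagtgacTGCcgcttcacagacaag
In the 3 upper sequences the codon is the TGA that the annotation marks as selenocysteine. In Gpx7 it is TGT and in Gpx8 TGC, both cysteine. The stretches lie at chr9:108339439-108339468 on the + strand (Gpx1), chr11:54907244-54907273 on the + strand (Gpx3), chr10:80054725-80054754 on the + strand (Gpx4), chr4:108403415-108403444 on the - strand (Gpx7) and chr13:113045646-113045675 on the - strand (Gpx8). The coding parts of the 5 genes shared between 60.1% (Gpx3 and Gpx8) and 66.3% (Gpx4 and Gpx7) of aligned bases in global alignments. Of the 31-base words in the listed transcripts, none of Gpx1, Gpx7 or Gpx8 occurred in a transcript of another gene. For Gpx3, 10 of 1812 words did, in Gpx5 and Gpx6, so few reads of the 4 genes match another gene exactly. Gpx4 shared 38.9% of its words with a processed pseudogene, Gpx4-ps2, and another locus, AC122253.3, so its own sum is less certain.

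All 4 genes were measured above the filter in the left ventricle, at levels that spanned over an order of magnitude per unit length. Over the 25 mice Gpx3 averaged 177 ± 99.7 scaled TPM (SD, n = 25), Gpx1 64.0 ± 10.8, Gpx8 17.7 ± 1.84 and Gpx7 5.15 ± 0.69, beside 547 ± 188 for Gpx4. TPM is a level per unit of transcript length, and scaled means divided by a library factor. The order Gpx3, Gpx1, Gpx8, Gpx7 was found within each of 25 of 25 mice, and Gpx4 exceeded Gpx3 in 24 of 25. The other family members were at or near 0, with highest values of 0.046 for Gpx2, 0.032 for Gpx5 and 0.031 for Gpx6 in any mouse.

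**Figure D1:**
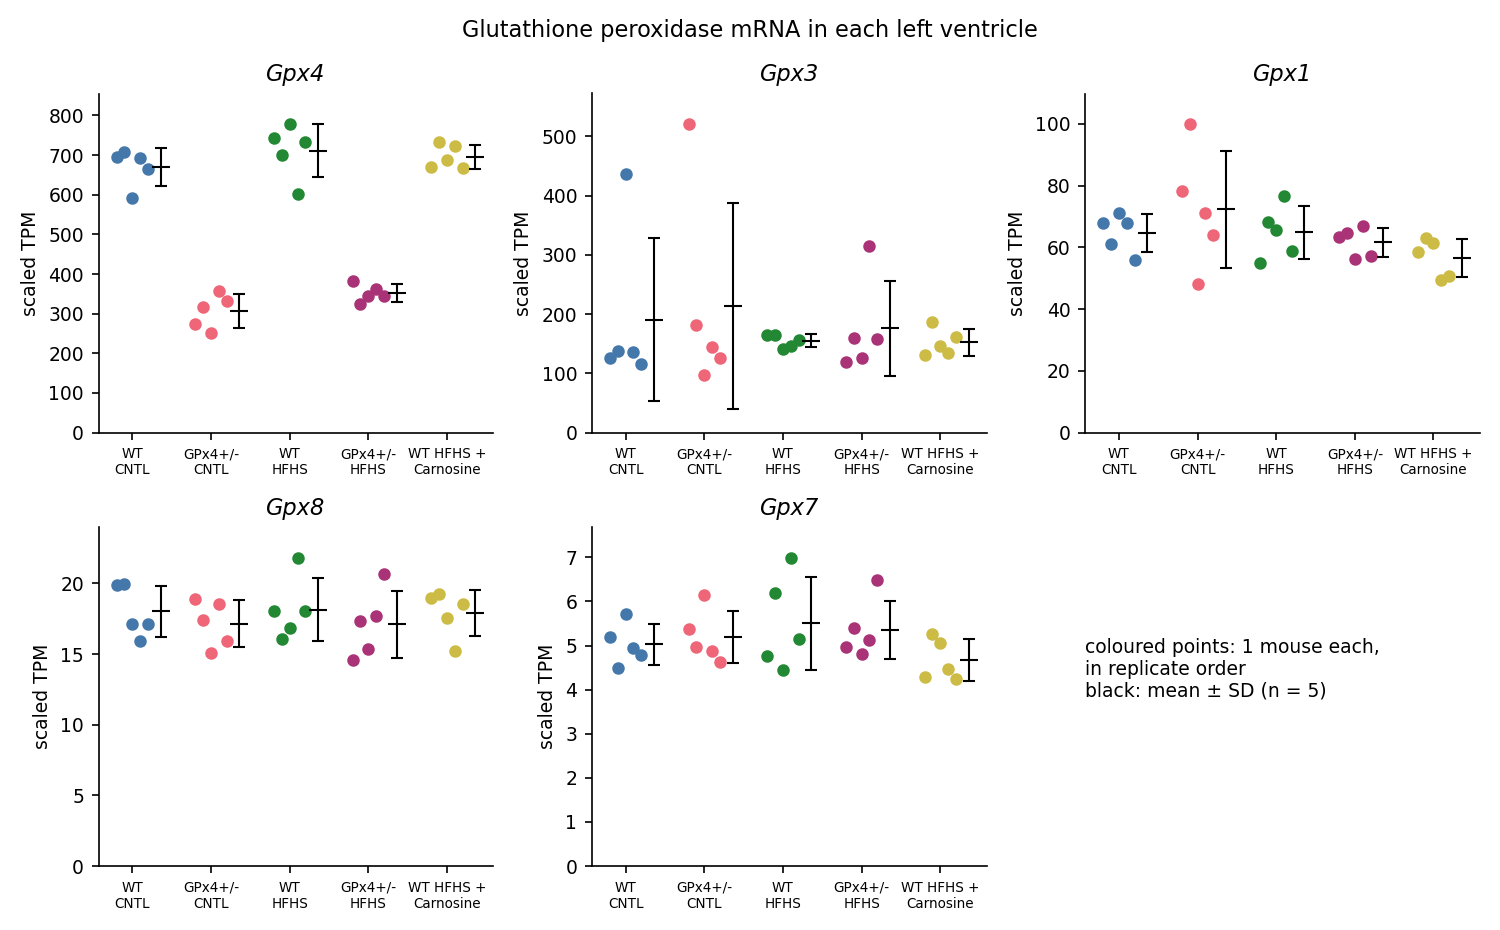
Scaled TPM (y axis, from 0) of Gpx4 and the 4 other glutathione peroxidases in each of 25 left ventricles, by group (x axis); each coloured point is 1 mouse, and black marks give the mean ± SD (n = 5). Gpx4 is lower in both GPx4+/- groups with no overlap, while the groups overlap for Gpx3, Gpx1, Gpx8 and Gpx7, and 3 mice stand at 316 to 520.2 for Gpx3.

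Gpx4 itself was examined first, since it checks the labels. It was 695, 709, 591, 692 and 666 scaled TPM in WT CNTL mice 1 to 5 and 274, 317, 251, 357 and 331 in GPx4+/- CNTL mice. On HFHS it was 744, 701, 778, 601 and 734 in WT and 383, 324, 345, 363 and 344 in GPx4+/- mice. The WT and GPx4+/- ranges did not overlap on either diet. The log2 difference was -1.14 (SE 0.087) on CNTL and -1.01 (SE 0.087) on HFHS, with adjusted p = 2.78e-07 and 2.14e-06 by limma with Benjamini-Hochberg adjustment. Carnosine-treated mice had 671, 734, 688, 722 and 666.

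Gpx1, the cytosolic and mitochondrial peroxidase, had overlapping values in all 5 groups. In WT CNTL mice 1 to 5 it was 68.0, 61.0, 71.1, 67.8 and 55.9 scaled TPM, and in GPx4+/- CNTL mice 78.4, 99.8, 48.1, 71.2 and 63.9. On HFHS it was 54.8, 68.2, 65.5, 76.7 and 58.7 in WT, 63.2, 64.6, 56.3, 66.9 and 57.1 in GPx4+/-, and 58.3, 63.1, 61.4, 49.3 and 50.8 with carnosine. The GPx4+/- CNTL group held both the highest and the lowest value of all mice. By mean the order was GPx4+/- CNTL (72.3 ± 19.1, SD, n = 5), WT HFHS (64.8 ± 8.51), WT CNTL (64.8 ± 6.15), GPx4+/- HFHS (61.6 ± 4.67) and WT HFHS + Carnosine (56.6 ± 6.21), and each group overlapped the next.

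Gpx3, the secreted plasma enzyme, was the most variable of the 4. It was 127, 138, 436, 136 and 116 scaled TPM in WT CNTL mice 1 to 5, and 520.2, 181, 98.0, 144 and 126 in GPx4+/- CNTL mice. On HFHS it was 165, 165, 141, 146 and 157 in WT, 119, 159, 126, 316 and 159 in GPx4+/-, and 132, 187, 146, 134 and 161 with carnosine. WT CNTL mouse 3, GPx4+/- CNTL mouse 1 and GPx4+/- HFHS mouse 4 stood far above the rest of their groups. The means ran from GPx4+/- CNTL (214 ± 174, SD, n = 5) through WT CNTL (191 ± 138), GPx4+/- HFHS (176 ± 80.3) and WT HFHS (155 ± 11.1) to WT HFHS + Carnosine (152 ± 22.9), again with every neighbour overlapping.

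Gpx7, the soluble peroxidase of the endoplasmic reticulum, was the lowest of the 4. It was 5.19, 4.49, 5.71, 4.94 and 4.79 in WT CNTL mice 1 to 5 and 5.38, 4.97, 6.14, 4.88 and 4.62 in GPx4+/- CNTL mice. On HFHS it was 4.76, 6.19, 4.45, 6.99 and 5.14 in WT, 4.97, 5.39, 4.81, 5.13 and 6.48 in GPx4+/-, and 4.29, 5.27, 5.06, 4.48 and 4.25 with carnosine. WT HFHS mouse 4 had the highest value and the carnosine group the lowest one. Group means were 5.51 ± 1.06 (SD, n = 5) in WT HFHS, 5.36 ± 0.66 in GPx4+/- HFHS, 5.20 ± 0.59 in GPx4+/- CNTL, 5.02 ± 0.46 in WT CNTL and 4.67 ± 0.47 with carnosine, and neighbouring groups overlapped.

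Gpx8, the membrane-bound counterpart of Gpx7, had the smallest coefficient of variation over all mice, 10.4%, beside 13.4% for Gpx7, 16.8% for Gpx1 and 56.2% for Gpx3. It was 19.9, 20.0, 17.2, 15.9 and 17.1 in WT CNTL mice 1 to 5 and 18.9, 17.4, 15.1, 18.5 and 15.9 in GPx4+/- CNTL mice. On HFHS it was 18.0, 16.1, 16.8, 21.8 and 18.0 in WT, 14.6, 17.3, 15.4, 17.7 and 20.7 in GPx4+/-, and 18.9, 19.2, 17.6, 15.2 and 18.5 with carnosine. The 5 group means lay between 17.1 ± 2.37 (SD, n = 5, GPx4+/- HFHS) and 18.2 ± 2.21 (WT HFHS), and neighbouring groups overlapped.

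The first comparison asked whether any of the 4 mRNAs was higher where Gpx4 was lower. None passed the test on either diet or over both. On CNTL 0.0501% of the genes tested were called at an adjusted p under 0.05, on HFHS 0.0501%, and over both diets 0.0584%, and 0 of the 4 peroxidases were among them. On CNTL the log2 difference (GPx4+/- minus WT) was 0.12 (SE 0.136) for Gpx1, 0.097 (SE 0.389) for Gpx3, 0.043 (SE 0.107) for Gpx7 and -0.068 (SE 0.096) for Gpx8. On HFHS the same differences were -0.065, 0.087, -0.026 and -0.085, with the same errors. With 6 libraries left out that were high in atrial, liver or smooth muscle genes, described further on, the CNTL differences of Gpx1 and Gpx3 turned to -0.063 and -0.087, and the HFHS differences of Gpx3 and Gpx7 to -0.17 and 0.070. Leaving out GPx4+/- CNTL mouse 2 alone took Gpx1 to -0.0036 and leaving out GPx4+/- CNTL mouse 3 took it to 0.26, and Gpx3 was -0.29 without GPx4+/- CNTL mouse 1 and 0.45 without WT CNTL mouse 3. On HFHS Gpx3 was -0.15 without GPx4+/- HFHS mouse 4 and 0.20 without GPx4+/- HFHS mouse 1, and Gpx7 was 0.057 without WT HFHS mouse 4 and -0.092 without WT HFHS mouse 3. Across the 8 differences in all mice the unadjusted p of limma ran from 0.379 to 0.824 and the adjusted p from 0.918 to 0.995. The ranges of WT and GPx4+/- mice overlapped for all 4 on both diets, beside 0.926% and 0.726% of genes tested that did not overlap on CNTL and HFHS. The exact two-sided permutation test of 5 against 5 mice, whose smallest p is 0.00794, gave 0.468 to 0.897.

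A missed threshold does not show equal levels, so the width of each interval matters. Over both diets, where 10 GPx4+/- mice stood against 10 WT mice, the 95% interval of the difference ran from -11.3% to 17.2% for Gpx1, from -9.83% to 12.2% for Gpx7 and from -14.1% to 4.66% for Gpx8. For Gpx3 it ran from -28.4% to 58.7%. Without the 6 libraries the log2 difference of Gpx3 was -0.13 (SE 0.087), and with the atrial marker level as a covariate, chosen after these values were seen, -0.034 (SE 0.110), both with the sign turned from 0.092. Over both diets and in all 20 mice Gpx4 had a log2 difference of -1.08 (SE 0.061).

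Summed over the 4 genes, the level was 219.7, 224, 530.2, 224 and 194 scaled TPM in WT CNTL mice 1 to 5 and 623, 303, 167, 239 and 211 in GPx4+/- CNTL mice. On HFHS the sum was 243, 256, 228, 252 and 239 in WT and 202, 247, 202, 405 and 243 in GPx4+/- mice. The mean sum in GPx4+/- exceeded that in WT by 30.2 scaled TPM on CNTL (95% interval -208 to 268) and by 16.4 on HFHS (-71.0 to 103.9). The corresponding differences in Gpx4 were -364 (-430.4 to -299) and -360 (-433 to -287). These intervals pool the SD of the 2 groups compared. For the sum the SD of WT and GPx4+/- mice was 141 and 182 on CNTL, and 11.1 and 84.1 on HFHS. Whether the 4 genes replace Gpx4 in function was not tested. Without the 6 libraries the sums differed by -9.80 (-59.8 to 40.2) and -17.8 (-51.1 to 15.5), and Gpx4 by -377 and -390.0. In carnosine-treated mice the sum was 213, 275, 230.3, 203 and 235, a difference of -12.3 from WT HFHS (-43.0 to 18.4). Without the 6 libraries it was -21.1 (-44.2 to 2.10), and that of Gpx4 was -52.3 (-102 to -2.68) instead of -15.4. Between diets, the sum on HFHS differed from that on CNTL by -34.9 (-181 to 111) in WT and by -48.7 (-256 to 158) in GPx4+/- mice. Without the 6 libraries these became 25.9 (3.14 to 48.7) and 17.9 (-40.5 to 76.3). Those libraries include the mice ranked 1, 2, 3, 4 and 5 in Gpx3, so the sums and intervals without them depend on that choice. Sums of mRNA say nothing on enzyme activity, which was not measured in these files. Of the 5 mRNAs together, Gpx4 made up a median of 76.0% in WT and 59.9% in GPx4+/- mice on CNTL, and of 75.4% in WT and 58.6% in GPx4+/- mice on HFHS. With carnosine the median was 74.9%.

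**Figure D2:**
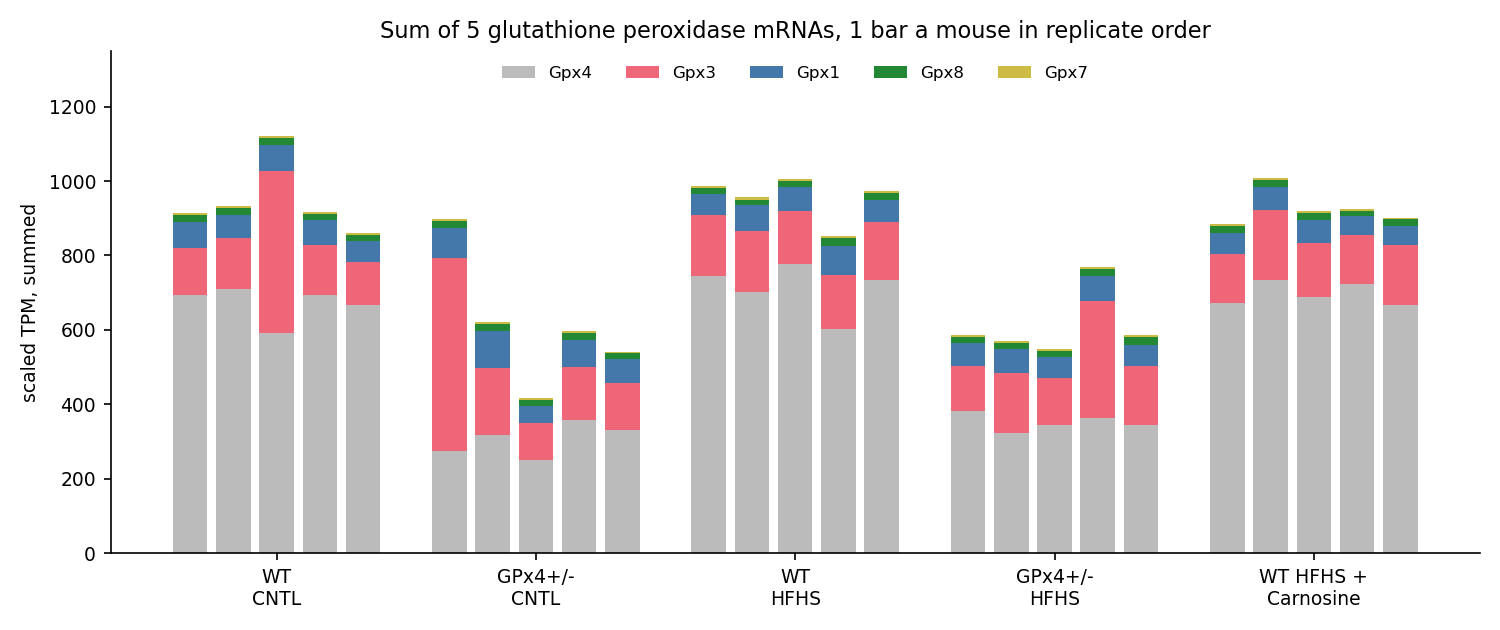
Stacked bars of scaled TPM (y axis, from 0) for Gpx4, Gpx3, Gpx1, Gpx8 and Gpx7 in each mouse, grouped along the x axis by genotype and diet in replicate order. The grey Gpx4 part is 251 to 383 in GPx4+/- and 591 to 778 in WT mice, while the part above it is 167 to 303 in all but 3 mice, where Gpx3 is 316, 436 and 520.2.

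Under the HFHS diet none of the 4 genes passed the test, in either genotype or over both. Of all genes tested 1.18% were called in WT, 3.34% in GPx4+/- and 8.33% over both genotypes, against 0 of the 4. In WT the log2 difference (HFHS minus CNTL) was -0.0035 (SE 0.136) for Gpx1, -0.089 (SE 0.389) for Gpx3, 0.11 (SE 0.107) for Gpx7 and 0.0082 (SE 0.096) for Gpx8. In GPx4+/- it was -0.19, -0.098, 0.038 and -0.0082, with the same errors. The value of Gpx1 in GPx4+/- was -0.065 without GPx4+/- CNTL mouse 2, -0.33 without GPx4+/- CNTL mouse 3 and -0.0013 without the 6 libraries. Without those libraries Gpx3 turned to 0.28 in WT and 0.20 in GPx4+/-, and Gpx8 to -0.074 and 0.033. With 1 mouse left out, Gpx3 ran in WT from -0.21 (without WT CNTL mouse 5) to 0.26 (without WT CNTL mouse 3), and in GPx4+/- from -0.33 (without GPx4+/- HFHS mouse 4) to 0.29 (without GPx4+/- CNTL mouse 1). Gpx7 in WT was 0.024 without WT HFHS mouse 4 and 0.17 without WT HFHS mouse 3. Over both genotypes the 95% intervals ran from -18.7% to 7.43% for Gpx1, from -37.1% to 39.6% for Gpx3, from -5.71% to 17.3% for Gpx7 and from -9.39% to 10.4% for Gpx8. The groups overlapped for all 4 in both genotypes, beside 4.51% (WT) and 4.47% (GPx4+/-) of genes that did not overlap. Gpx4 had a log2 difference of 0.15 (SE 0.061, adjusted p = 0.143 by limma) over both genotypes, and was above the CNTL mean in 4 of 5 WT and 5 of 5 GPx4+/- mice on HFHS. In GPx4+/- alone its log2 difference was 0.21 (SE 0.087, adjusted p = 0.194 by limma). The diet and genotype comparisons share groups of mice.

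Whether the diet difference depended on genotype was tested as an interaction, and no gene was called (0% of 11984 by limma, 7.14% at an unadjusted p under 0.05). For the 4 genes the log2 interaction (diet difference in GPx4+/- minus that in WT) was -0.19 (SE 0.192) for Gpx1, -0.0093 (SE 0.550) for Gpx3, -0.070 (SE 0.151) for Gpx7 and -0.016 (SE 0.136) for Gpx8. The unadjusted p lay between 0.340 and 0.987. Without the 6 libraries the value of Gpx1 turned to 0.030, and without GPx4+/- CNTL mouse 2 alone it was -0.062. That of Gpx3 was -0.36 without WT CNTL mouse 3, 0.38 without GPx4+/- CNTL mouse 1 and 0.19 with the atrial covariate.

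With carnosine, Gpx1 and Gpx7 showed their smallest p of the study, and neither passed the test. Again limma called 0% of all genes, with 4.21% at an unadjusted p under 0.05. Gpx1 was 12.4% lower than in WT HFHS (log2 -0.19, SE 0.099, 95% interval -24.6% to 1.72%), and 0 of 5 treated mice lay above the untreated mean. Its p was 0.0771 before and 0.947 after adjustment (limma), and the exact permutation test gave 0.119. Without WT HFHS mouse 4 the untreated mean of Gpx1 was 61.8, below carnosine mouse 2 (63.1). With 1 mouse left out the log2 difference of Gpx1 ran from -0.25 to -0.13. Gpx7 was 13.2% lower (log2 -0.20, SE 0.117, 95% interval -27.3% to 3.68%), also with 0 of 5 treated mice above the untreated mean, with p = 0.108, adjusted p = 0.947 (limma) and an exact permutation p of 0.159. Without WT HFHS mouse 4, the highest in Gpx7 and in smooth muscle and fibroblast markers, the log2 difference of Gpx7 was -0.12. Gpx3 differed by -0.037 on the log2 scale (SE 0.094) and Gpx8 by -0.017 (SE 0.089). Without the 6 libraries Gpx3 differed by -0.135 (SE 0.079) and Gpx8 by 0.023. With 1 mouse left out Gpx3 ran from -0.12 to 0.011 and Gpx8 from -0.058 to 0.049. The treated and untreated ranges overlapped for all 4 genes, beside 0.609% of genes that did not. The WT HFHS group is also the reference of the diet and genotype comparisons.

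**Figure D3:**
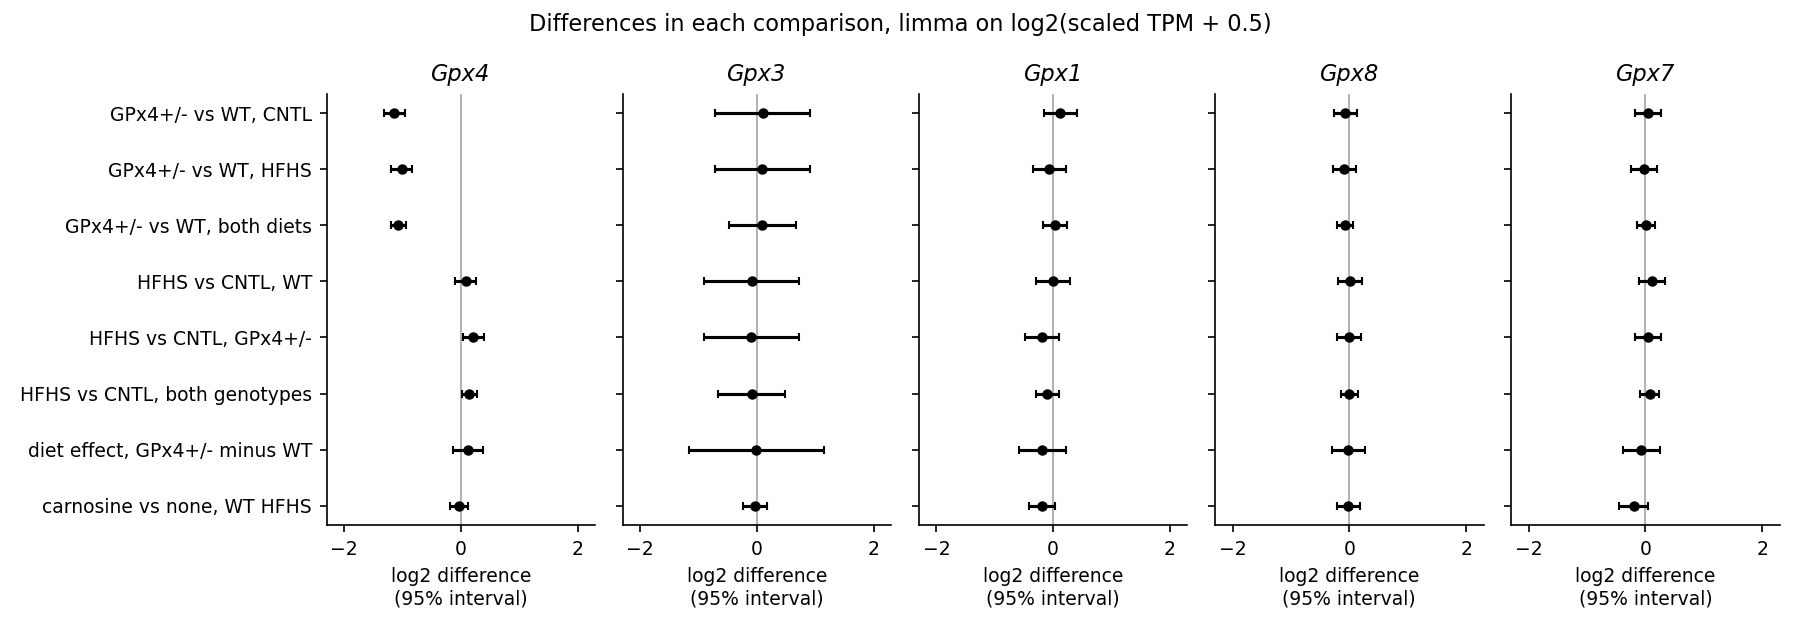
Log2 differences (x axis, 95% intervals from limma on log2(scaled TPM + 0.5)) for Gpx4, Gpx3, Gpx1, Gpx8 and Gpx7 in 8 comparisons (y axis). The intervals of Gpx4 lie wholly below 0 in the 3 genotype comparisons (-1.14, -1.01 and -1.08). They lie wholly above 0 for diet in GPx4+/- (0.21) and over both genotypes (0.15), with no adjustment for the number of genes. Those of Gpx3, Gpx1, Gpx8 and Gpx7 include 0 in each of the 8, and those of Gpx3 are the widest outside the carnosine comparison.

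The high Gpx3 values fell in libraries with high atrial cardiomyocyte genes. The extraction protocol in the labels names left ventricular tissue, and cardiomyocyte genes (Myh6, Tnnt2, Actc1, Ryr2, Tnni3, Ckm) summed to between 27105 and 33696 scaled TPM in every mouse. Summed markers of atrial cardiomyocytes (Myl7, Myl4, Sln, Nppa, Bmp10), which line the upper chambers, reached 7347 in GPx4+/- CNTL mouse 1, 4566 in WT CNTL mouse 3 and 2695 in GPx4+/- HFHS mouse 4. These are the mice with Gpx3 at 520.2, 436 and 316, in that order. The next highest were GPx4+/- CNTL mouse 2 (atrial sum 1481, Gpx3 181) and carnosine mouse 2 (580.2 and 187), and in the other 20 mice the atrial sum was 30.6 to 276. Among the atrial markers Sln was at or under 0.40 in all WT CNTL mice but mouse 3, where it was 157. The 3 mice with highest Gpx3 come from 3 groups. The same 3 mice were also the highest in adipocyte markers (Adipoq, Plin1, Cidec, Cfd, Lep, Retn, Ucp1), with sums of 9.76 in GPx4+/- CNTL mouse 1, 16.1 in WT CNTL mouse 3 and 11.9 in GPx4+/- HFHS mouse 4, beside at most 5.24 in the other mice. The part of atrial or fat tissue in the Gpx3 values was not tested.

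Liver genes stood out in 1 library. Hepatocyte markers (Alb, Apoa1, Apoa2, Ttr, Fgb, Ahsg) summed to 1201 in GPx4+/- CNTL mouse 2, which had the highest Gpx1 of all, 99.8, and to at most 101 in the other mice. The next highest hepatocyte sums, 101 and 63.8 in GPx4+/- HFHS mice 1 and 3, went with Gpx1 at 63.2 and 56.3. Smooth muscle markers (Myh11, Acta2, Cnn1, Actg2, Tagln, Smtn) were highest in WT HFHS mouse 4 (634), as were fibroblast markers (Col1a1, Col1a2, Col3a1, Dcn, Lum, Pdgfra, Tcf21, Postn) at 729.9, and this mouse had the highest Gpx7 (6.99) and Gpx8 (21.8). GPx4+/- HFHS mouse 5, second in smooth muscle markers (340.2), was also second in Gpx7 (6.48) and Gpx8 (20.7). Of the next mice in smooth muscle markers, WT HFHS mouse 5 (301) ranked 10 of 25 in both Gpx7 (5.14) and Gpx8 (18.0), and WT HFHS mouse 2 (284) ranked 3 in Gpx7 (6.19) and 19 in Gpx8 (16.1). In bulk tissue, a different share of a cell type and a different amount of mRNA per cell cannot be told apart, and the part of these cells in the values was not tested. Erythroid markers summed to 2274 to 7568, endothelial to 266 to 359, macrophage to 73.8 to 148 and adipocyte to 0.077 to 16.1 over all mice.

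**Figure D4:**
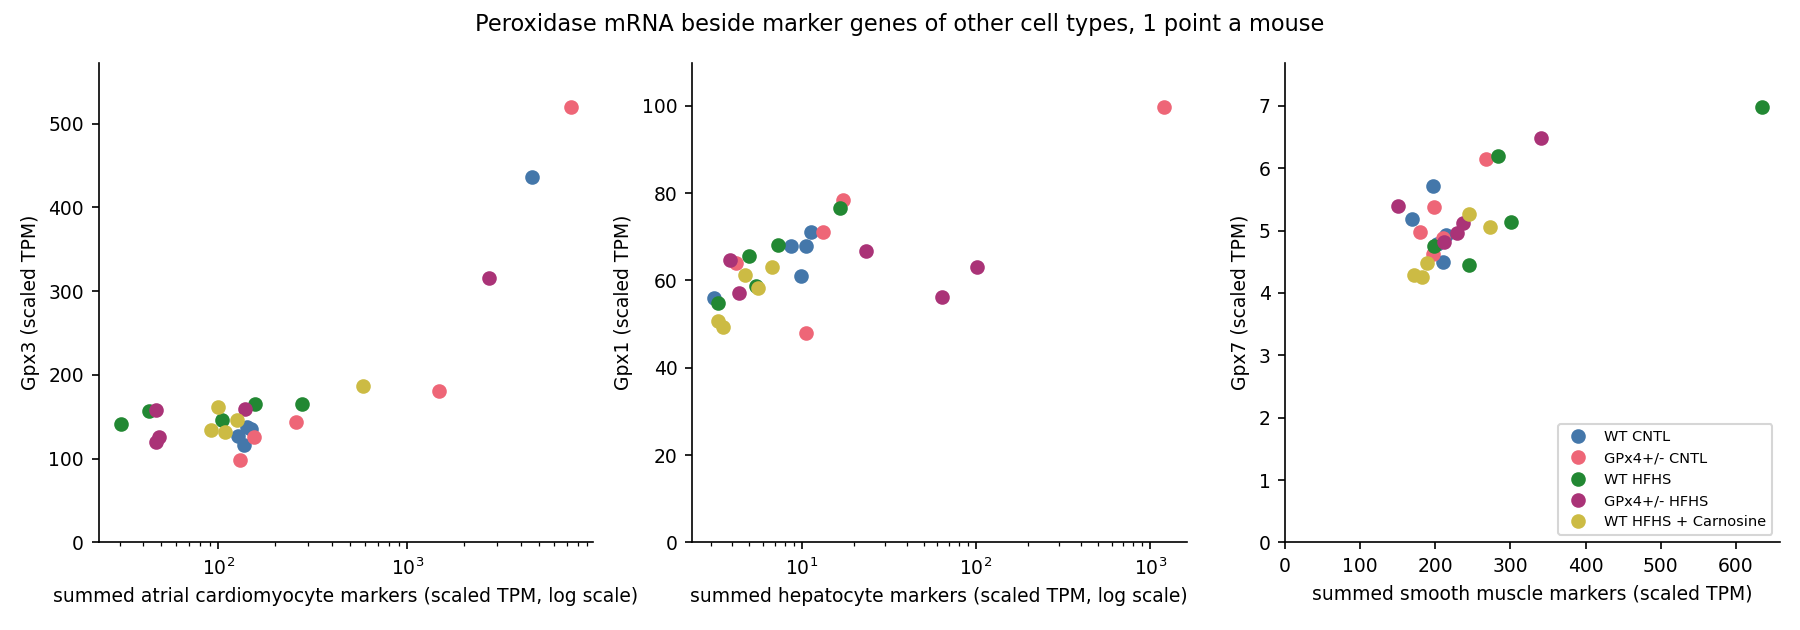
Gpx3 against summed atrial cardiomyocyte markers, Gpx1 against summed hepatocyte markers and Gpx7 against summed smooth muscle markers, all in scaled TPM with 1 point a mouse, coloured by group; the x axes of the left and middle plots are logarithmic. The 3 mice with Gpx3 of 316 and above have atrial sums of 2695 and above, the mouse with Gpx1 of 99.8 has a hepatocyte sum of 1201, and the mouse with Gpx7 of 6.99 has a smooth muscle sum of 634.

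In a second set of fits, 6 libraries high in these genes were left out together, namely WT CNTL 3, GPx4+/- CNTL 1 and 2, WT HFHS 4, GPx4+/- HFHS 4 and carnosine 2. They were named without a stated marker cut. GPx4+/- HFHS mouse 5, second in smooth muscle markers (340.2) and in Gpx7 (6.48), was kept. So was GPx4+/- HFHS mouse 1, which ranked 2 in hepatocyte markers (101). In the 19 mice that remained, Gpx3 was 129 ± 10.1 scaled TPM (SD, n = 4) in WT and 123 ± 23.4 (n = 3) in GPx4+/- mice on CNTL, and 157 ± 11.5 (n = 4) in WT, 141 ± 21.1 (n = 4) in GPx4+/- and 143 ± 13.6 (n = 4) in carnosine-treated mice on HFHS. Its coefficient of variation over these mice was 13.4%. The libraries left out include the mice ranked 1, 2, 3, 4 and 5 in Gpx3. The lower spread of Gpx3 thus follows from the choice, and its differences without these libraries depend on that choice. The diet difference over both genotypes was 0.24 (SE 0.087, adjusted p = 0.113 by limma) instead of -0.093, and in WT 0.28 (SE 0.118, adjusted p = 0.261 by limma). With the atrial marker level as a covariate in all mice, the diet difference was 0.15 (SE 0.112, adjusted p = 0.423 by limma). Gpx3 thus passed the test in neither setting, while the sign of its diet difference turned in both. The turn without the 6 libraries is not independent of the choice of mice.

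The genes whose log2 level ran most alike with each peroxidase were sought among 8101 genes with a mean of at least 5 scaled TPM, as a description over 25 mice, each 1 library, in which all genes are read from the same libraries. For Gpx3 they were Pam (Pearson r = 0.96), which encodes a peptide-amidating enzyme abundant in atrial granules, Tbc1d1 (0.96), a regulator of glucose transporter traffic, and Arhgap31 (0.93). After group means were subtracted these were 0.98, 0.98 and 0.93, and over the 19 mice 0.75, 0.57 and 0.65. Pam was 767, 630.5 and 474 scaled TPM in the 3 mice highest in Gpx3 and at most 390 in the others.

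For Gpx1 the closest genes were Ahsg (r = 0.82), a secreted liver protein, Scd1 (0.74), a fatty acid desaturase, and Pgrmc1 (0.73), a haem-binding membrane protein. Over the 19 mice these fell to 0.44, 0.21 and 0.26. For Gpx7 they were Tpm2 (0.82), a tropomyosin, Fgfr1 (0.78), a growth factor receptor, and Mmp23 (0.78), a metalloproteinase, with 0.74, 0.72 and 0.67 over the 19 mice. Gpx8 ran with Prr13 (0.71), Ilf2 (0.66) and Arpc5 (0.66), an actin-nucleating subunit, with 0.63, 0.70 and 0.67 over the 19 mice. The genes most alike to Gpx1 and Gpx3 held lower r in the 19 mice than in all 25, which is given as a description only. They were picked by r over those 25 mice. The libraries left out include the mice ranked 1, 2 and 3 in Gpx1 and in Gpx3. The fall thus follows in part from the choice and is no contrast with Gpx7 and Gpx8.

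The 4 genes are made of few transcripts. Gpx1 (chr9:108338903-108340343, + strand) was read mainly from Gpx1-204, with 50.7% of the gene's TPM, Gpx1-201 with 39.2% and Gpx1-202 with 10.0%. The selenocysteine codon shown above lies within the annotated coding part of Gpx1-201 alone of the 4 listed transcripts, though all 4 carry those bases in an exon. On CNTL, Gpx1-201 made up 40.3% ± 3.76 of Gpx1 (SD, n = 5) in WT and 42.8% ± 3.58 in GPx4+/- mice. On HFHS it made up 38.7% ± 2.91 in WT, 37.7% ± 5.80 in GPx4+/- and 36.3% ± 2.49 in carnosine-treated mice, and these shares were not tested. Transcripts of 1 gene share most of their bases, so the split between them is an estimate of the authors' quantification.

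Gpx3 (chr11:54902453-54910377, + strand) came to 98.9% from Gpx3-201 and to 1.02% from Gpx3-203. Gpx7 (chr4:108400390-108406961, - strand) came to 93.8% from Gpx7-201 and to 6.24% from Gpx7-202. Gpx8 (chr13:113042753-113046410, - strand, inside Cdc20b on the opposite strand) came to 87.9% from Gpx8-201 and to 12.1% from Gpx8-202, a share of 9.29% ± 2.65 with carnosine and 15.1% ± 4.22 (SD, n = 5) in GPx4+/- CNTL at its extremes.

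The genes that supply these enzymes were described from 3 lists. None of 12 tested genes of glutathione supply and recycling, 11 of selenocysteine insertion and selenium supply and 12 of oxidative folding in the endoplasmic reticulum was called for genotype on either diet, over both diets, for the interaction, or for carnosine. Slc7a11, the cystine carrier, and Lrp8, a selenoprotein receptor, were below the filter. For genotype over both diets the smallest p among the lists belonged to Gsr, glutathione reductase (log2 -0.053, SE 0.057), and Pgd (-0.038, SE 0.041), to Eefsec, the selenocysteine elongation factor (-0.13, SE 0.074), and Secisbp2l (0.062, SE 0.039), and to Ero1b, an oxidase of protein disulfide isomerase (0.12, SE 0.065), and Qsox1 (-0.087, SE 0.092). The medians of the 3 lists in that comparison were -0.030, 0.026 and 0.0020, beside -0.00053 for all genes.

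Under HFHS, 4 genes of these lists were called lower over both genotypes and 0 higher, beside 3.65% and 4.68% of all genes tested. They were Chac1, which breaks down glutathione (log2 -0.44, SE 0.080, adjusted p = 0.0019), Gclm, the modifier subunit of the enzyme that starts glutathione synthesis (-0.35, SE 0.096, adjusted p = 0.0284), Secisbp2l, a relative of the selenocysteine insertion factor (-0.15, SE 0.039, adjusted p = 0.0238), and Prdx4, the peroxiredoxin of the endoplasmic reticulum (-0.27, SE 0.065, adjusted p = 0.0131), all by limma. Within genotypes, Chac1 was called lower in WT (-0.54, SE 0.113, adjusted p = 0.0256) and Prdx4 in GPx4+/- (-0.34, SE 0.091, adjusted p = 0.0468), by limma, beside 0.526% and 1.16% of all genes called lower. The medians of the lists over both genotypes were 0.0040, -0.022 and 0.035, beside -0.0024 for all genes. With carnosine, the smallest p in each list belonged to Chac1 (-0.27, SE 0.162) and Slc3a2 (-0.059, SE 0.054), Eefsec (-0.18, SE 0.115) and Secisbp2l (0.069, SE 0.057), and Qsox1 (-0.22, SE 0.106) and Hspa5 (0.11, SE 0.062).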

How the data were processed

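The authors deposited transcript abundances as TPM (a level corrected for transcript length that sums to 1000000 per library) for 119215 transcripts in 25 libraries. Per the labels, polyadenylated RNA was made into stranded libraries. The submitters' processing notes name kallisto 0.43.1, sleuth 0.30.0 and GRCm38, and the paper's methods describe alignment with STAR and tests of gene counts with DESeq2, so the step that made the TPM is not stated outright. The table also holds other columns of the authors, transcript identifiers and lengths, which were not tested. Columns were matched to mice by the library name in the header, because the column positions in the sample descriptions disagree with it. TPM keeps no read depth, so no counting error is given. Mitochondrial transcripts took 31.3% to 48.7% of TPM.

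With GENCODE M21, 116772 transcripts were matched to genes (116384 of them with the same version number) and TPM was summed per gene. Libraries were scaled by median ratios over 11879 genes (factors 0.864 to 1.16), and log2(scaled TPM + 0.5) of 11984 genes with a mean of at least 1 was fitted with limma 3.58.1 in R 4.3.3, with Benjamini-Hochberg adjustment over all of them and a threshold of 0.05. Since TPM are not counts, limma replaced the paper's test. Genotype, diet and their interaction came from 1 fit of 20 mice, carnosine from 10. Fold changes are on the log2(value + 0.5) scale and understate those of low genes. Single values were also compared by exact two-sided permutation in R. The fit was tested on simulated data. Sequences were read with Biopython 1.88. Groups and replicate numbers came from the labels, and p-values measure the spread between animals.

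The members, lists, tests and alternatives were chosen with earlier results of these data known. Named are the 4 genes, Gpx4, the remaining family members by level, the 3 genes most correlated with each, transcripts of at least 1% of their gene, and the called genes of 3 lists or, where none was called, the 2 with the smallest p, printed for genotype over both diets and for carnosine. Alternatives were other scalings, pseudocounts, filters, sample sets and weights, a replicate block, each mouse left out, 6 libraries left out, and an atrial covariate.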

Additional observations from a re-analysis of the deposited data

Results flagged for a closer look

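Among 25 sets of 5 values (Gpx1, Gpx3, Gpx7, Gpx8 and Gpx4 in 5 groups), 3 held a mouse far from the rest, by a gap to its nearest neighbour above 0.71 of the group's range; chance gives about 1 in 20. All are high Gpx3 values. In WT CNTL mouse 3 (436 scaled TPM) the gap was 0.93 of the range, in GPx4+/- CNTL mouse 1 (520.2) it was 0.803, and in GPx4+/- HFHS mouse 4 (316) it was 0.797. The summed atrial markers of these mice were 4566, 7347 and 2695, and their adipocyte sums, 16.1, 9.76 and 11.9, were also the highest of all mice; the part of atrial or fat tissue in these values was not tested.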

How the results depend on the processing

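No alternative brought any of the 4 genes past the threshold, in 0 of 824 values (4 genes, 8 comparisons). The sign was kept in 723 and turned in 101. With no filter, a mean of at least 5, all 25 mice in a single fit, or the replicate block, each difference is the same by construction. Their signs could not turn and are among the 723. Gpx4 stayed past it for genotype in all its alternatives. The values are log2 differences. Without the 6 libraries, Gpx1 was -0.063 (genotype on CNTL), -0.048 (genotype over both diets) and 0.030 (interaction), Gpx3 -0.087, -0.17 and -0.13 (genotype on CNTL, on HFHS, over both), 0.28, 0.20 and 0.24 (diet in WT, in GPx4+/-, over both), Gpx7 0.070 (genotype on HFHS), and Gpx8 -0.074 and 0.033 (diet in WT, in GPx4+/-), 0.11 (interaction) and 0.023 (carnosine). With the atrial covariate, Gpx1 was 0.024 (diet in WT), Gpx3 -0.13 and -0.034 (genotype on CNTL, over both), 0.056, 0.25 and 0.15 (diet in WT, in GPx4+/-, over both) and 0.19 (interaction), and Gpx8 0.0089 and 0.012 (diet in GPx4+/-, over both). Array weights gave 0.068 for Gpx3 and -0.020 for Gpx8 (diet in WT) and 0.016 for Gpx8 (carnosine). TPM as deposited gave -0.010 and -0.060 for Gpx7 (genotype over both, diet in GPx4+/-), quantile normalization -0.0028 for Gpx7 (genotype over both), and TPM without mitochondrial transcripts -0.022 for Gpx8 (diet in WT). The 6 libraries include the mice ranked 1, 2, 3, 4 and 5 in Gpx3, so the turns of Gpx3 without them are not independent of that choice. The cause of the turns listed was not tested.

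Leaving out each mouse in turn turned 71 of 440 values. Gpx3 ran from -0.29 (without GPx4+/- CNTL mouse 1) to 0.45 (without WT CNTL mouse 3) for genotype on CNTL, -0.15 to 0.20 on HFHS, -0.10 to 0.27 over both, -0.21 to 0.26 for diet in WT, -0.33 to 0.29 in GPx4+/-, -0.21 to 0.10 over both, -0.36 to 0.38 for the interaction and -0.12 to 0.011 for carnosine. Gpx1 ran from -0.0036 (without GPx4+/- CNTL mouse 2) to 0.26 for genotype on CNTL, -0.035 to 0.096 over both, -0.066 to 0.054 for diet in WT and -0.33 to -0.065 in GPx4+/-. Gpx7 ran from -0.013 to 0.086 for genotype on CNTL, -0.092 to 0.057 on HFHS, -0.024 to 0.050 over both, 0.024 to 0.17 for diet in WT, -0.027 to 0.095 in GPx4+/-, -0.13 to 0.014 for the interaction and -0.27 to -0.12 for carnosine. Gpx8 ran from -0.058 to 0.049 for diet in WT, -0.077 to 0.045 in GPx4+/-, -0.034 to 0.027 over both, -0.085 to 0.050 for the interaction and -0.058 to 0.049 for carnosine. For genotype on HFHS, Gpx1 ran from -0.12 to -0.0027 and Gpx8 from -0.15 to -0.018. For genotype on CNTL, Gpx8 ran from -0.11 to -0.024. Gpx4 ran from -0.086 to 0.0064 for carnosine.

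With the replicate number as a block, the differences were the same by construction (Gpx1 with carnosine -0.19, adjusted p = 0.998 by limma; Gpx4 genotype over both diets -1.08, adjusted p = 2.32e-07) and no call of these genes changed. The numbers pair no animals, since deviations of same-numbered mice correlated between -0.34 and 0.23; the block took the genes called for diet in WT from 142 to 68. For diet in WT that number was also 38 with TPM as deposited, 43 with no filter, 405 with array weights, 271 with the atrial covariate, and 36 to 202 with a mouse left out. For diet in GPx4+/- it went from 400 to 222 without mitochondrial transcripts, 235 with no filter and 191 to 484 with a mouse left out. For genotype it was 6 on CNTL and 4 to 9 under the alternatives, 6 on HFHS and 3 to 7, and 7 over both diets and 4 to 10. A mouse left out gave at most 1 call for the interaction.

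TPM hold no depth, so counting error is unknown. With 5 mice a group, the intervals of Gpx3 include differences of over 50% for genotype within either diet and for diet within either genotype. Genotype with carnosine, protein and enzyme activity were not analysed here.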
